A study of Homo sapiens with 9 samples.

Results

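Solute carriers are membrane proteins that move ions, metals, sugars, amino acids, vitamins, nucleotides and metabolites across the plasma membrane and the membranes of mitochondria, lysosomes, the endoplasmic reticulum and the Golgi. The genes described here are those named SLC in AC16 cells other than 14 carriers of cystine, other amino acids, glucose, lactate, heme, iron and zinc that were left out by name. A gene was a member when its symbol began with SLC and a digit, it was not a pseudogene, and it had 50 or more counts in at least 3 of the 9 libraries. This gave 189 members of 58299 genes in the count table. The table held 513 such rows, of which 88 were pseudogenes. Of the other 425, 222 fell below the minimum, 77 of them at 0 in every library. Of the 189 members, 179 reached 50 counts in all 9 libraries, and none reached the minimum through 1 group alone. All 189 passed the filter of the test.

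AC16 is an established human line derived from adult ventricular heart muscle cells fused with SV40-transformed fibroblasts, and its cells divide. There were 3 groups with 3 libraries each: vehicle (0.1% DMSO, 72 h), CDDO-Me at 100 nM for 24 h, and CDDO-Me at 100 nM for 72 h. CDDO-Me (bardoxolone methyl) is a triterpenoid that binds KEAP1, the protein that keeps the transcription factor NRF2 low. No vehicle group of 24 h was among the samples, so the 24 h values differ from vehicle in both drug and time, which cannot be told apart.

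Total counts per library ran from 16898977 in the first library of 24 h to 27910031 in the third of 24 h. Of 14 cardiomyocyte markers, 12 were below 1 CPM in all groups (CPM are counts scaled by library size), and MYH6, MYH7, MYL2, RYR2 and NKX2-5 were at 0 in all 9 libraries. GATA4 (25.3 ± 0.474 CPM in DMSO, SD, n = 3) and TTN were detected, and 6 fibroblast markers summed to 11900 to 16600 CPM. NQO1, an NRF2 target enzyme, stood at 449 ± 40.3 CPM in DMSO, 1880 ± 257 at 24 h and 3350 ± 40.2 at 72 h (SD, n = 3). The third library of 24 h differed from the other 2 of its group. The median absolute log2 difference over tested genes was 0.27 and 0.244 to those 2, and 0.137 between them. To the 72 h libraries it was 0.183 to 0.194 for the third, 0.213 to 0.219 for the first and 0.186 to 0.193 for the second. Which of the 3 is unusual cannot be told from these values. In the third library 27 of the 189 members (14.3%) differed by more than 1.5-fold from the mean of the other 2 libraries, against 18.3% of all tested genes. In each of the other 8 libraries 0 to 12 members did, against 5.88 to 11.7% of all tested genes. The 12 members were those of DMSO replicate 1 (6.35%; 11.7% of all tested genes). The nuclear RNA MALAT1 was at 33.0 CPM there and at 76.9 and 78.2 in the other 2 libraries of 24 h, against 33.7 to 65.8 in DMSO and 22.2 to 50.4 at 72 h. NEAT1 was at 30.6 CPM there and at 126 and 138 in the other 2, against 46.5 to 88.3 in DMSO and 36.2 to 44.0 at 72 h. For both RNAs the first 2 libraries of 24 h were the highest of the 9. Results that rest on this library are given with and without it.

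Carriers are numbered into families by sequence, and most families share a substrate. Most carriers of the SLC25 family sit in the inner mitochondrial membrane, where different members exchange ADP for ATP or carry phosphate, citrate or acyl-carnitines. SLC35 carriers bring nucleotide sugars and sulfate donors into the Golgi, SLC39 and SLC30 carriers move zinc into and out of the cytosol, and SLC4, SLC9, SLC12 and SLC26 carriers set cell pH, volume and chloride. In heart muscle, the ADP/ATP carriers, the acyl-carnitine carrier and the sodium/calcium exchangers are known for their part in energy supply and contraction. The members were placed in 14 classes by family. The mitochondrial class holds all SLC25 carriers, without regard to the membrane of each. The largest were 37 mitochondrial carriers, 23 for nucleotide sugars and Golgi cofactors, 23 for sodium, protons, chloride and bicarbonate, 22 for zinc, iron, copper and magnesium, and 21 for amino acids, peptides and osmolytes. Another 7 members are RNAs or proteins that carry a carrier's name but are no carriers.

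The promoter windows of 3 members are shown because SLC12A8 had the highest fold change of the carriers, SLC20A1 was the only called member with a window that held an antioxidant response element core, the motif bound by NRF2 with its partners, and SLC25A20 was called in the opposite direction to SLC20A1. Each window runs from 250 bases before to 50 bases after a RefSeq start (GRCh38.p14), 5′ to 3′ on the strand of the gene. SLC20A1 lies on the plus strand (chr2:112645689-112645988). SLC12A8 (chr3:125211350-125211649) and SLC25A20 (chr3:48898833-48899132) lie on the minus strand. Capitals mark an E-box (CACGTG) and 2 antioxidant response element cores (TGACNNNGC) that read TGACGCAGC and TGACCCCGC on the opposite strand.
SLC20A1: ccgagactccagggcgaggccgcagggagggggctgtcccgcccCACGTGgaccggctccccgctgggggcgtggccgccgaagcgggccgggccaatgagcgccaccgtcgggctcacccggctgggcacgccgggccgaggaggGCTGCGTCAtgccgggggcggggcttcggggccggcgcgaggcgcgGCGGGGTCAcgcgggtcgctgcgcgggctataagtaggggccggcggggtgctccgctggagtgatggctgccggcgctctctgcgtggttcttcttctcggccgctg
SLC12A8: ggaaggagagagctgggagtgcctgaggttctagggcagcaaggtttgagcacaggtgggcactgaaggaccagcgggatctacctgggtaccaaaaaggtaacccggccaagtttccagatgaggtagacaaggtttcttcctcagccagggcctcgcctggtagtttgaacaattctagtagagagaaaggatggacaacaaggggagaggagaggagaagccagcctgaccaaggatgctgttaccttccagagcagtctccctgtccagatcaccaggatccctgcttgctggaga
SLC25A20: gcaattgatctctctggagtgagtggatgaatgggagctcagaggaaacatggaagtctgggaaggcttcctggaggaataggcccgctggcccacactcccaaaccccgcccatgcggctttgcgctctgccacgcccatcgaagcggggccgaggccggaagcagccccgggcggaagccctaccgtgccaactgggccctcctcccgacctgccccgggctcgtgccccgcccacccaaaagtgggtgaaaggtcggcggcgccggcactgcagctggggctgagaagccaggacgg
In SLC20A1 the E-box began 206 bases before the start, and the 2 cores began 104 and 58 bases before it. The windows of SLC12A8 and SLC25A20 held none of the 3 motifs searched on both strands, the third being the C/EBP-ATF core TGATGCAA. The start used for SLC12A8 lies inside the gene as the count table gives it.

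RefSeq windows were found for 153 of the 189 members (225 windows). The antioxidant response element core was in 16.0% of them and in 13.3% of all 35116 windows. The E-box was in 13.8% and 7.26%, and the C/EBP-ATF core in 0.444% and 0.866%. Of the 15 members called in any comparison, 10 had a window, 1 of them (SLC20A1) with the antioxidant response element core and 2 (SLC20A1 and SLC35C1) with an E-box. None of the 5 members called higher at 72 h that had a window held any of the 3 motifs. Among them SLC22A23 and SLC8B1, like SLC12A8, had a window inside the gene as counted, not at its 5′ end. These were chr6:3324101-3324400 in a minus-strand gene reaching 3457022, and chr12:113335060-113335359 in one reaching 113359493. The 5′ ends of these genes as counted were not searched. A match describes letters in the window, not a bound site.

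Levels between genes were compared as CPM per kilobase of exon, averaged over the 9 libraries. The length counts all annotated exons of a gene (1500 bases for SLC25A5, 8896 for SLC25A3), not those of the transcripts present. The order of members therefore depends on the annotation as well as on the reads. Levels ran from 0.25 for SLC2A13, a proton-coupled inositol carrier, to 319 for SLC25A5, the ADP/ATP carrier of dividing cells. The median over members was 4.72. The 10 highest members held 43.2% of the summed level, 4 members were above 100 and 43 were below 2. After SLC25A5 came the citrate carrier SLC25A1 (113 CPM per kilobase), the ADP/ATP carrier SLC25A6 (109) and SLC39A7, which releases zinc from the endoplasmic reticulum and Golgi (105). SLC25A4, the ADP/ATP carrier typical of heart and skeletal muscle, was at 1.94 CPM per kilobase. Other members at the top were the mitochondrial phosphate carrier SLC25A3 (66.3), the sulfate donor carrier SLC35B2 (64.9), the zinc carrier SLC39A1 (58.5), the oxoglutarate-malate carrier SLC25A11 (53.9) and the riboflavin carrier SLC52A2 (52.6). SLC52A2 shares 44.2% of its exon bases with genes on the other strand, and the libraries carry no strand. The gene SLC2A4RG (73.5) codes for a transcription factor, not a carrier. All members together summed to 9655 to 10570 CPM in a library, or 0.966 to 1.06% of its normalized library size.

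**Figure D1:**
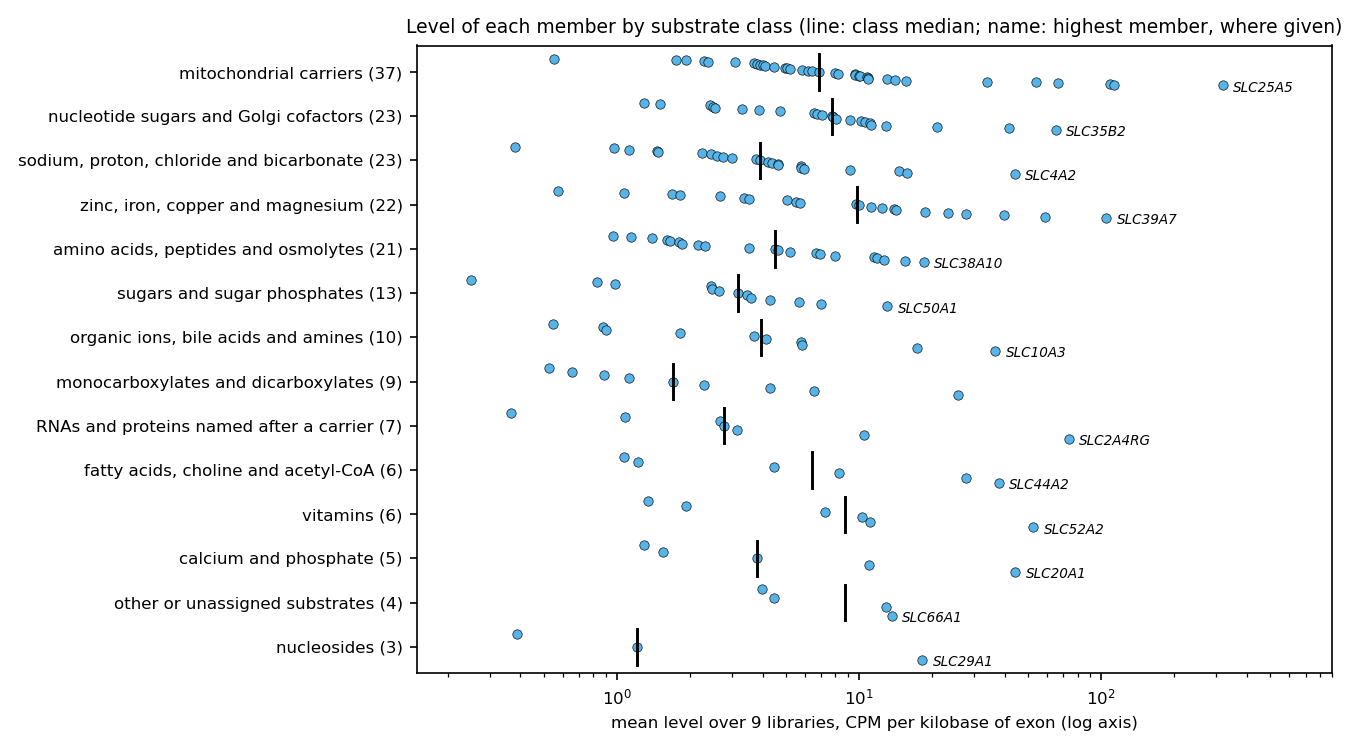
Mean level of each of the 189 members over 9 libraries (CPM per kilobase of exon, log axis) by substrate class, with the number of members in brackets, 1 point per member and a line at the class median. The length is that of all annotated exons of a gene. SLC25A5 at 319 is the highest point, and the class medians lie between 1.21 (nucleosides) and 9.84 (zinc, iron, copper and magnesium).

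Few members were called in any comparison with all 9 libraries, and 170 of the 189 stayed under 1.5-fold in the point estimate of all 3. More were called without the third 24 h library, as given below. Genes were tested with edgeR (quasi-likelihood) over all 14965 genes, and a gene was called at a Benjamini-Hochberg adjusted p under 0.05. At 24 h against DMSO, 4 members were called higher (2.12% of 189; 0.969% of all tested genes were called higher) and 1 lower (0.529%; 1.18% of all). At 72 h against DMSO, 7 were called higher (3.70%; 2.89% of all) and 5 lower (2.65%; 3.13% of all). At 72 h against 24 h, 1 was called higher (0.529%; 0.448% of all) and 1 lower (0.529%; 0.568% of all). At 72 h the shares of members called were near those of all genes. The median log2 fold change of the members was 0.04 at 24 h and −0.00 at 72 h, against 0.01 and −0.00 over all genes. The summed level of the members was 10080 ± 464 CPM in DMSO, 10370 ± 223 at 24 h and 9951 ± 32.7 at 72 h (SD, n = 3), and the DMSO libraries, from 9655 to 10570 CPM, spanned all treated libraries.

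Groups that did not overlap were about as frequent among members as among all genes at 72 h against DMSO. All 3 libraries of 72 h lay above all 3 DMSO libraries in 30 members (15.9%; 15.5% of all genes) and below them in 31 (16.4%; 15.2% of all genes). At 24 h against DMSO, 15 members lay fully above (7.94%; 6.73% of all genes) and 6 fully below (3.17%; 6.74%). At 72 h against 24 h, 15 lay fully above (7.94%; 10.8%) and 32 fully below (16.9%; 10.2%), and the third 24 h library is part of both of these comparisons. For 137 members (72.5%) the 95% interval of the fold change at 72 h against DMSO lay within 1.5-fold in either direction, as it did for 59.6% of all genes. At 24 h this held for 145 members (76.7%; 61.9% of all genes). These intervals are per gene and not adjusted.

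**Figure D2:**
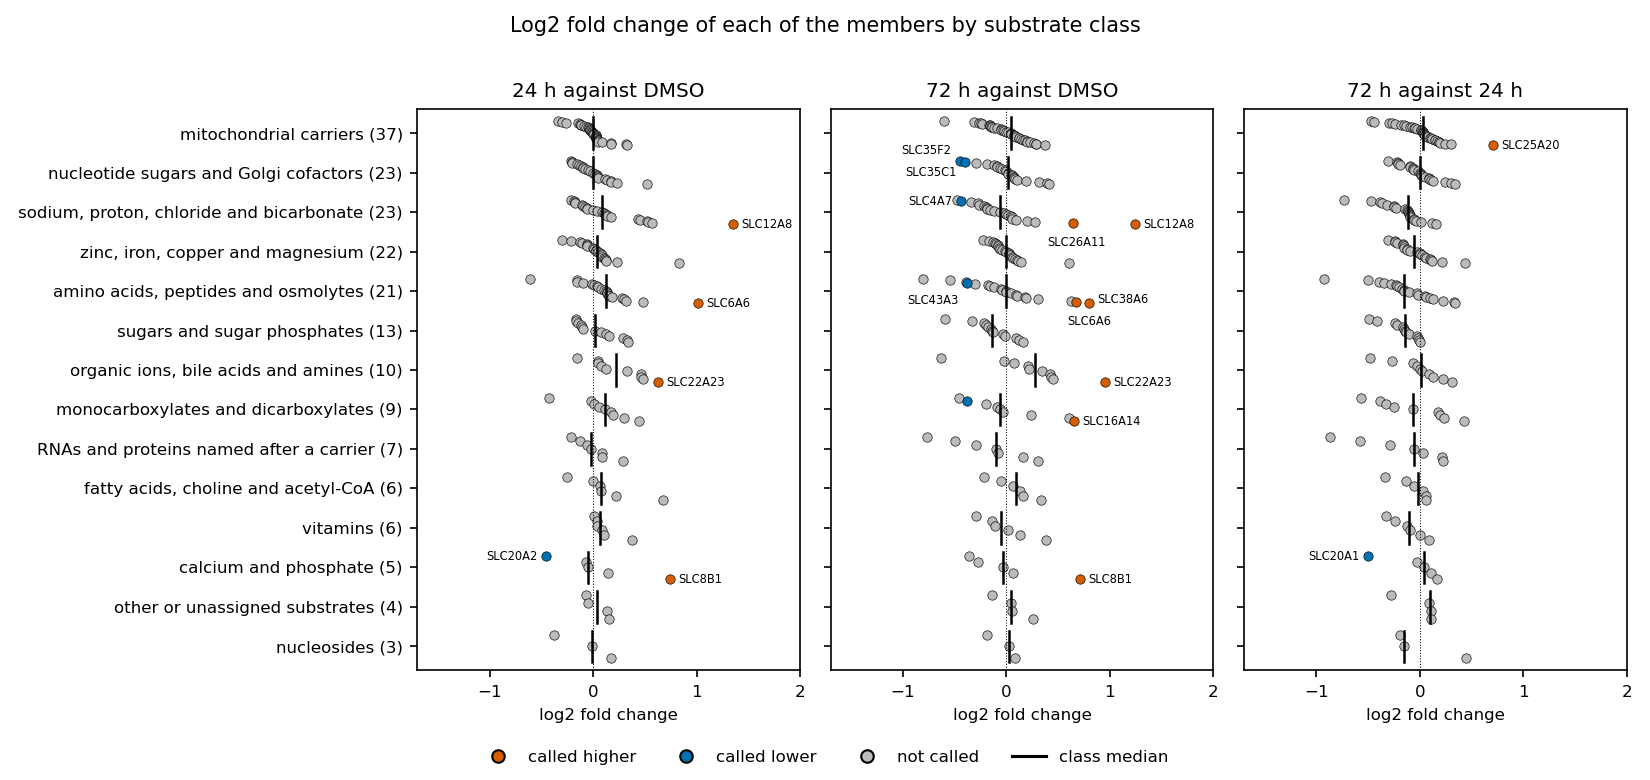
Log2 fold change (x axis) of each of the 189 members by substrate class in the 3 comparisons, with called members coloured, all but 1 of them named, and a line at each class median. Called members are spread over 7 classes, and the class medians lie between −0.15 and 0.28.

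Among carriers of sodium, protons, chloride and bicarbonate, 2 of 23 members rose at 72 h and 1 fell. SLC12A8, of the cation-chloride cotransporter family, stood at 6.46, 12.0 and 14.5 CPM in the 3 DMSO libraries, at 30.0, 28.1 and 26.5 CPM at 24 h and at 25.1, 28.9 and 24.4 CPM at 72 h. The treated libraries all lay above the DMSO libraries, and the lowest value was that of DMSO replicate 1. SLC12A8 rose 2.55-fold at 24 h (log2 fold change 1.35 ± 0.21 SE, edgeR adjusted p = 0.00672) and 2.37-fold at 72 h (1.24 ± 0.22, adjusted p = 0.00478). It lies on chromosome 3 from 125082636 to 125212864 (GRCh38, minus strand), and both calls held in all 19 alternative analyses.

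SLC26A11, a sulfate and anion carrier on chromosome 17 (80219699 to 80253500, plus strand), had 13.9, 16.1 and 16.7 CPM in DMSO, 26.8, 20.7 and 19.8 at 24 h, and 25.0, 24.5 and 23.2 at 72 h. Every treated library was above every DMSO library. It rose at 72 h (log2 fold change 0.64 ± 0.13 SE, edgeR adjusted p = 0.00829, held in all 19 alternatives). At 24 h its log2 fold change was 0.52 ± 0.13, with an edgeR adjusted p of 0.0521. It was called higher at 24 h without the third 24 h library (0.60, edgeR adjusted p = 0.004).

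The sodium-bicarbonate cotransporter SLC4A7, which brings bicarbonate into the cell, had 61.9, 69.9 and 58.3 CPM in DMSO, 54.6, 67.3 and 45.2 at 24 h, and 47.3, 48.6 and 44.1 at 72 h. All 72 h libraries lay below all DMSO libraries, while the 24 h libraries spread across both. Its fall at 72 h (log2 fold change −0.44 ± 0.12 SE) sat at the threshold, with an edgeR adjusted p of 0.05 after rounding, and was lost in 10 of 19 alternatives. The anion exchanger SLC4A2, highest of the class per kilobase, had 287 to 369 CPM over the 9 libraries. Its 95% interval at 72 h ran from 0.912- to 1.18-fold. The other 20 members of this class, among them the chloride cotransporter SLC12A2, were not called by edgeR in any comparison. For the whole class DESeq2 called 2 higher at 24 h, 2 higher and 2 lower at 72 h, and 1 lower at 72 h against 24 h. Of all 14965 genes it called 245 higher at 24 h, and 560 higher and 647 lower at 72 h. At 72 h against 24 h it called 225 lower. Without the third 24 h library edgeR called 5 of the class higher at 24 h (5.71% of all genes). It called 2 higher and 3 lower at 72 h (6.26% and 6.62%), and 5 lower at 72 h against 24 h (6.84%). SLC12A2, named after its values were seen, missed the threshold at 72 h (log2 fold change −0.34, edgeR adjusted p = 0.0528). It was called lower there without the third 24 h library (edgeR adjusted p = 0.0155).

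Of 21 members for amino acids, peptides and osmolytes, 2 rose and 1 fell at 72 h. SLC6A6, the sodium-coupled taurine carrier (chromosome 3, 14402576 to 14489349, plus strand), had 73.4, 63.1 and 55.6 CPM in DMSO, 108, 109 and 169 at 24 h, and 99.9, 100 and 105 at 72 h. The highest value was that of the third 24 h library, and both treated groups lay fully above DMSO. SLC6A6 rose 2.02-fold at 24 h (log2 fold change 1.01 ± 0.16 SE, edgeR adjusted p = 0.00845) and 1.59-fold at 72 h (0.67 ± 0.16, adjusted p = 0.0355). Without DMSO replicate 2 the 24 h call was lost (edgeR adjusted p = 0.0596), and the 72 h call was lost in 6 of 19 alternatives.

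SLC38A6, a member of the sodium-coupled neutral amino acid carrier family (chromosome 14, 60981114 to 61083733, plus strand), stood at 4.65, 5.68 and 7.64 CPM in DMSO, at 8.68, 7.95 and 8.48 at 24 h, and at 10.8, 10.3 and 10.4 at 72 h. The 3 groups did not overlap. It rose 1.75-fold at 72 h (log2 fold change 0.80 ± 0.17 SE, edgeR adjusted p = 0.0114, lost in 3 of 19 alternatives) and was not called at 24 h (0.48 ± 0.17, adjusted p = 0.22). SLC43A3, placed here by family but known as a purine nucleobase carrier, had 60.2 to 63.0 CPM in DMSO, 68.6, 66.3 and 52.5 at 24 h, and 48.9, 49.3 and 44.5 at 72 h. It fell at 72 h (log2 fold change −0.38 ± 0.10 SE, edgeR adjusted p = 0.0397), a call lost in 7 of 19 alternatives, and 29.9% of its exon bases are shared with another gene on the same strand.

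The other 18 members of the class were not called by edgeR in any comparison. For the whole class at 72 h against DMSO, DESeq2 called 3 higher and 2 lower (560 and 647 of all 14965 genes). Without the third 24 h library edgeR called 3 higher and 4 lower there (6.26% and 6.62% of all genes). It then called 2 higher at 24 h (5.71%) and 4 lower at 72 h against 24 h (6.84%). The member with the highest level per kilobase, SLC38A10, had 126 to 166 CPM over the 9 libraries and a 95% interval of 0.844- to 1.10-fold at 72 h. SLC7A4, named after its values were seen, had the lowest log2 fold change of all members at 72 h (−0.81, edgeR adjusted p = 0.744). Its libraries ran from 1.86 to 7.26 CPM in DMSO and from 0.256 to 8.85 CPM at 24 h, the lowest in the third 24 h library, so that the groups overlapped.

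Of 10 members for organic ions, bile acids and amines, SLC22A23 was the only one called with all 9 libraries, and it rose at both times. SLC22A23 belongs to the organic ion carrier family and has no settled substrate (chromosome 6, 3268962 to 3457022, minus strand). It had 26.0, 23.2 and 24.9 CPM in DMSO, 40.8, 40.5 and 33.9 at 24 h, and 49.7, 45.3 and 47.7 at 72 h. The 3 groups did not overlap, and 72 h was the highest. Its log2 fold change was 0.63 ± 0.10 SE at 24 h (1.55-fold, edgeR adjusted p = 0.00299) and 0.95 ± 0.10 at 72 h (1.93-fold, adjusted p = 4.97e-05), and both calls held in all 19 alternatives. The difference between 72 h and 24 h was 0.31 ± 0.10 (edgeR adjusted p = 0.17). SLC22A23 shares 15.6% of its exon bases with PSMG4 on the other strand, and the libraries carry no strand.

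The class of organic ions had the highest median log2 fold change of the 14 at 72 h, 0.28, with 8 of 10 members above 0. Without the third 24 h library edgeR called 3 of them higher at 24 h (5.71% of all genes). SLC18B1 and SLC22A18 were among these (edgeR adjusted p = 0.0487 and 0.0493). It called 2 higher and 1 lower at 72 h (6.26% and 6.62%), and 1 lower at 72 h against 24 h (6.84%). DESeq2 called 1 higher at 24 h, and 1 higher and 1 lower at 72 h (245, 560 and 647 of 14965 genes). The carnitine carrier of the plasma membrane, SLC22A5, had 5.99 to 8.86 CPM over the 9 libraries and was not called at 24 h or 72 h. SLC10A3, the class member with the highest level per kilobase, had 72.0 to 93.4 CPM and a 95% interval of 0.858- to 1.13-fold at 72 h.

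Among the 5 carriers of calcium and phosphate, SLC8B1 rose at both times, and with all 9 libraries both phosphate carriers were called in 1 comparison each. SLC8B1, the sodium/calcium exchanger of the inner mitochondrial membrane, lies on chromosome 12 (113298759 to 113359493, minus strand). It had 18.6, 16.8 and 18.1 CPM in DMSO, 33.5, 34.7 and 21.8 at 24 h, and 28.9, 29.9 and 28.9 at 72 h. The third 24 h library was the lowest treated one but still above every DMSO library. SLC8B1 rose 1.67-fold at 24 h (log2 fold change 0.74 ± 0.15 SE, edgeR adjusted p = 0.0144, lost in 6 of 19 alternatives) and 1.64-fold at 72 h (0.71 ± 0.15, adjusted p = 0.00956). The 72 h call was lost without DMSO replicate 2 (edgeR adjusted p = 0.0608) and held in the other 18 alternatives. The plasma membrane exchanger SLC8A1 had 24.8 to 31.6 CPM, with a 95% interval of 0.896- to 1.21-fold at 72 h.

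SLC20A2 and SLC20A1 are sodium-phosphate cotransporters of the plasma membrane. SLC20A2 had 87.8, 83.5 and 85.4 CPM in DMSO, 60.4, 56.4 and 70.2 at 24 h, and 68.1, 73.1 and 69.6 at 72 h. All treated libraries lay below all DMSO libraries. It fell at 24 h (log2 fold change −0.46 ± 0.09 SE, edgeR adjusted p = 0.0118, lost in 3 of 19 alternatives), and at 72 h the log2 fold change was −0.28 ± 0.09 (adjusted p = 0.0721). Without the third 24 h library SLC20A2 was called lower at 72 h against DMSO (−0.28, edgeR adjusted p = 0.00777). It was then also called higher at 72 h against 24 h (0.27, edgeR adjusted p = 0.0274).

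SLC20A1, whose window is printed above (chromosome 2, 112645857 to 112663827, plus strand), had 314, 237 and 223 CPM in DMSO, 289, 294 and 267 at 24 h, and 205, 203 and 193 at 72 h. DMSO replicate 1 was above all treated libraries, and the other 2 DMSO libraries lay between 24 h and 72 h. SLC20A1 was lower at 72 h than at 24 h (log2 fold change −0.50 ± 0.11 SE, 0.708-fold, edgeR adjusted p = 0.0403), a call lost in 8 of 19 alternatives. Against DMSO its log2 fold change was 0.14 ± 0.11 at 24 h (adjusted p = 0.664) and −0.36 ± 0.11 at 72 h (adjusted p = 0.0618). Without the third 24 h library it was called lower at 72 h against DMSO (−0.36, edgeR adjusted p = 0.0362). For the 5 carriers of the class this fit gave 1 higher and 1 lower at 24 h (5.71% and 5.11% of all genes). It gave 1 higher and 2 lower at 72 h (6.26% and 6.62%), and 1 and 1 at 72 h against 24 h (5.19% and 6.84%). DESeq2 gave 1 and 1, 1 and 2, and 0 and 1 (245 and 301, 560 and 647, and 163 and 225 of 14965 genes).

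None of the 37 mitochondrial carriers was called against DMSO at 24 h or 72 h by edgeR. At an unadjusted p under 0.05 there were 1 higher and 2 lower at 24 h (6.59% and 6.22% of all genes), and 5 higher and 3 lower at 72 h (9.10% and 9.47% of all genes). DESeq2 called 1 higher at 72 h (560 of all 14965 genes), and limma-voom called none. Without the third 24 h library edgeR called 2 higher and 2 lower at 24 h (5.71% and 5.11% of all genes). It called 5 higher and 2 lower at 72 h (6.26% and 6.62%). At 72 h against 24 h it called 4 higher and 4 lower (5.19% and 6.84%). SLC25A5 had 495, 461 and 500 CPM in DMSO, 454, 458 and 506 at 24 h, and 490, 472 and 477 at 72 h. The groups overlapped, and the 95% interval of its fold change at 72 h ran from 0.886 to 1.10. The other abundant carriers had intervals as narrow, 0.906- to 1.16-fold for SLC25A1 and 0.921- to 1.19-fold for SLC25A6. SLC25A11 had the smallest adjusted p of the class at 72 h (log2 fold change 0.23 ± 0.07 SE, edgeR adjusted p = 0.0739), with 152 to 162 CPM against 128 to 138 in DMSO. It was called higher at 72 h without the third 24 h library (0.23, edgeR adjusted p = 0.0149).

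SLC25A20, which carries acyl-carnitines into the matrix for fatty acid oxidation, differed between the 2 treated groups (chromosome 3, 48856931 to 48898993, minus strand). Its libraries held 10.8, 10.5 and 12.3 CPM in DMSO, 9.02, 9.32 and 8.33 at 24 h, and 15.2, 13.6 and 14.6 at 72 h. The 24 h libraries lay below and the 72 h libraries above all DMSO libraries. At 72 h against 24 h it rose 1.63-fold (log2 fold change 0.71 ± 0.13 SE, edgeR adjusted p = 0.015), a call lost in 4 of 19 alternatives, each of which left out 1 library. Neither step against DMSO was called with all 9 libraries (−0.34 ± 0.13, adjusted p = 0.257, and 0.37 ± 0.13, adjusted p = 0.109). Without the third 24 h library the step at 72 h was called (0.37, edgeR adjusted p = 0.0391).

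**Figure D3:**
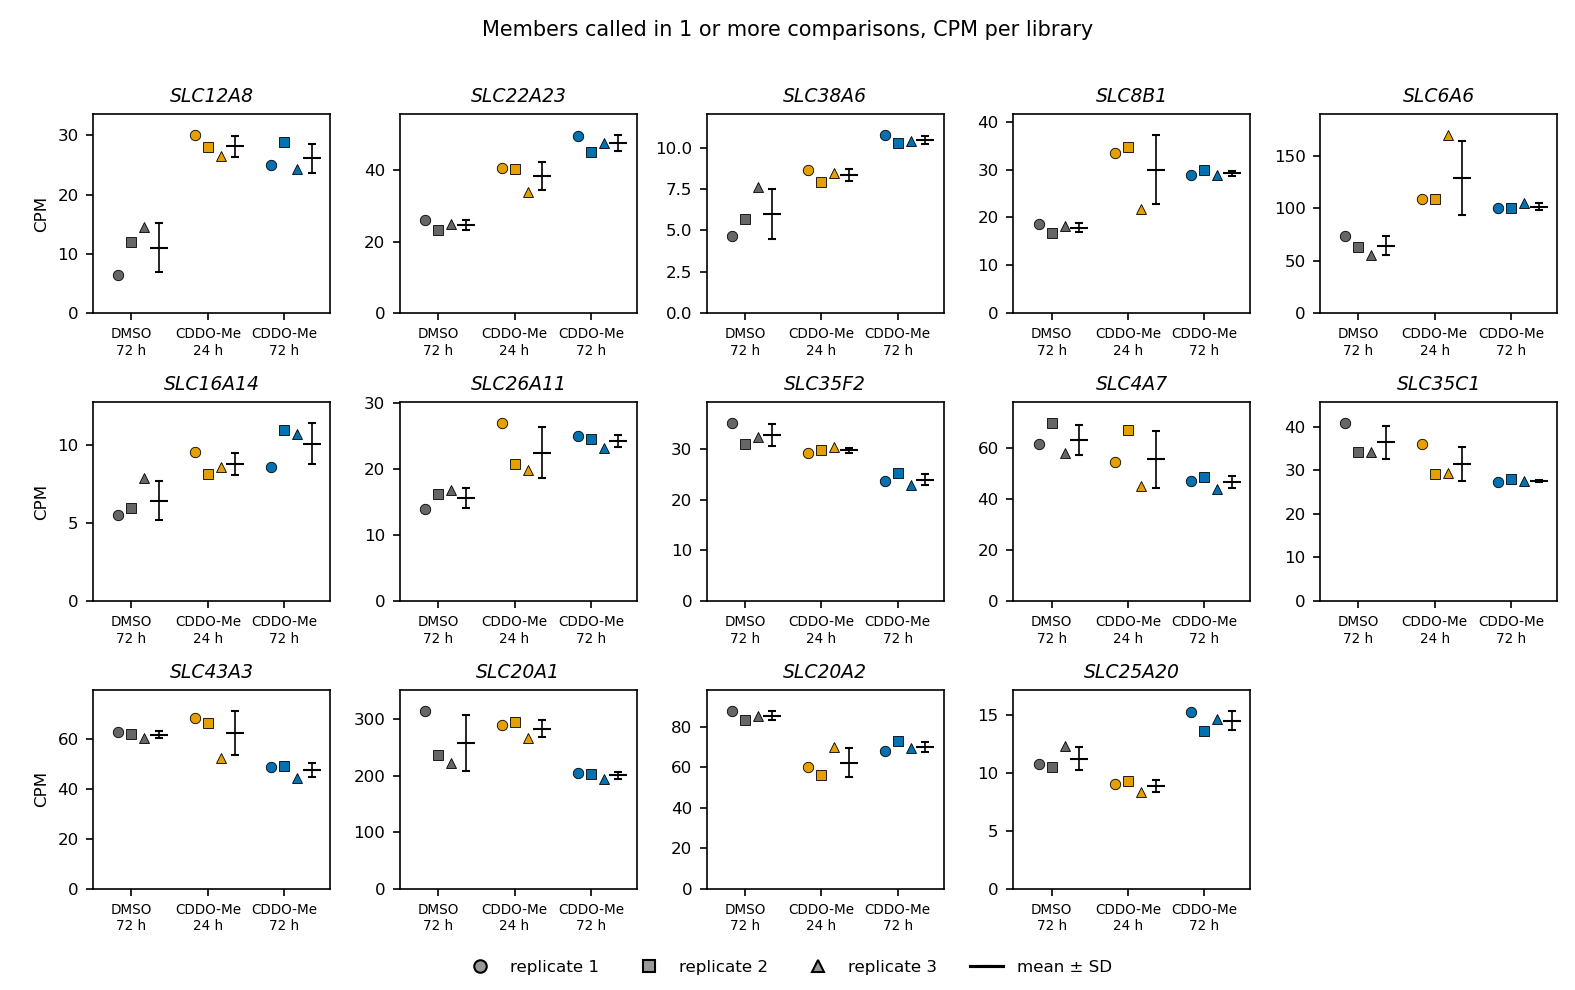
CPM of 14 of the 15 members called in at least 1 comparison, in each of the 9 libraries (marker shape is the replicate number) with mean ± SD of 3 libraries and the y axis from 0. SLC12A8 and SLC22A23 lie higher in all 6 treated libraries than in DMSO, and SLC25A20 is lowest at 24 h and highest at 72 h.

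Of 23 carriers of nucleotide sugars and Golgi cofactors, 2 fell and none rose at 72 h. SLC35F2, placed here by family and known for uptake of an anticancer drug at the plasma membrane, lies on chromosome 11 (107790991 to 107928293, minus strand). It had 35.0, 30.9 and 32.3 CPM in DMSO, 29.3, 29.7 and 30.3 at 24 h, and 23.7, 25.2 and 23.0 at 72 h. The 3 groups did not overlap and 72 h was the lowest. Its log2 fold change at 72 h was −0.45 ± 0.09 SE (0.731-fold, edgeR adjusted p = 0.00909, lost in 2 of 19 alternatives).

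The Golgi carrier of GDP-fucose, SLC35C1, had 40.7, 34.3 and 34.2 CPM in DMSO, 36.0, 29.1 and 29.3 at 24 h, and 27.3, 27.9 and 27.6 at 72 h. All 72 h libraries lay below the others. It fell at 72 h (log2 fold change −0.40 ± 0.11 SE, edgeR adjusted p = 0.0439), a call lost in 8 of 19 alternatives. The class member with the highest level per kilobase, SLC35B2, had 133 to 171 CPM and a 95% interval of 1.01- to 1.29-fold at 72 h, without a call. Without the third 24 h library edgeR called 1 member of the class higher at 24 h (5.71% of all genes). It called 2 lower at 72 h (6.62%) and 2 lower at 72 h against 24 h (6.84%). DESeq2 called 1 higher at 24 h and 2 lower at 72 h (245 and 647 of 14965 genes).

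Of 9 members of the monocarboxylate and dicarboxylate families, 1 rose and 1 fell at 72 h. SLC16A14, which has no settled substrate, had 5.53, 5.94 and 7.89 CPM in DMSO, 9.55, 8.16 and 8.63 at 24 h, and 8.62, 10.98 and 10.7 at 72 h. All treated libraries were above DMSO. It rose at 72 h (log2 fold change 0.65 ± 0.17 SE, edgeR adjusted p = 0.037, lost in 5 of 19 alternatives). For the class, edgeR without the third 24 h library called 1 higher at 24 h (5.71% of all genes). It called 1 higher and 1 lower at 72 h (6.26% and 6.62%). At 72 h against 24 h it called 1 higher and 2 lower (5.19% and 6.84%). DESeq2 called 1 higher and 1 lower at 72 h, and 1 lower at 72 h against 24 h (560, 647 and 225 of 14965 genes).

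None of the 22 members for zinc, iron, copper and magnesium was called in any of the 3 comparisons by edgeR. At an unadjusted p under 0.05 there were 2 higher and 0 lower at 24 h (6.59% and 6.22% of all genes). There were 1 and 1 at 72 h (9.10% and 9.47%), and 1 and 4 at 72 h against 24 h (5.75% and 7.40%). DESeq2 called 1 lower at 72 h against DMSO (647 of all 14965 genes) and limma-voom none. Without the third 24 h library edgeR called 1 higher at 24 h (5.71% of all genes). It called 1 lower at 72 h (6.62%) and 2 lower at 72 h against 24 h (6.84%). The 95% interval lay within 1.5-fold for 21 of the 22 at 72 h (95.5%). SLC39A7 had 267 to 342 CPM over the 9 libraries, with an interval of 0.833- to 1.09-fold at 72 h. SLC39A14, an importer of zinc, iron and manganese, had 285 to 295 CPM in DMSO and 240 to 253 CPM at 72 h, without overlap (log2 fold change −0.23 ± 0.07 SE, edgeR adjusted p = 0.0929). It was called lower at 72 h without the third 24 h library (−0.23, edgeR adjusted p = 0.00912). The copper importer SLC31A1 had 88.4 to 103 CPM over the 9 libraries, and its interval at 72 h ran from 0.82- to 1.02-fold.

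The 13 carriers of sugars and sugar phosphates held no call by edgeR. At an unadjusted p under 0.05 there were 2 higher and 0 lower at 24 h (6.59% and 6.22% of all genes), 0 and 2 at 72 h (9.10% and 9.47%), and 0 and 2 at 72 h against 24 h (5.75% and 7.40%). DESeq2 called 1 lower at 72 h (647 of all 14965 genes) and limma-voom none. Without the third 24 h library edgeR called 2 higher at 24 h (5.71% of all genes). It called 1 lower at 72 h (SLC2A6, adjusted p = 0.00143; 6.62% of all genes) and 2 lower at 72 h against 24 h (6.84%). Of the 13 carriers 10 had a log2 fold change below 0 at 72 h, and the class median was −0.14. SLC2A6, a glucose carrier of inner membranes, had 26.5, 22.6 and 20.2 CPM in DMSO, 25.2, 24.1 and 15.5 at 24 h, and 16.8, 14.2 and 14.8 at 72 h. The 72 h libraries lay below all DMSO libraries, at a log2 fold change of −0.59 ± 0.17 SE (edgeR adjusted p = 0.0527, 95% interval 0.516- to 0.85-fold). SLC50A1, the class member with the highest level per kilobase, had 24.6 to 39.0 CPM and overlapping groups.

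No call was made by edgeR in the 6 vitamin carriers, the 6 carriers of fatty acids, choline and acetyl-CoA, the 3 nucleoside carriers, the 4 others or the 7 RNAs and proteins named after a carrier. At an unadjusted p under 0.05 and 72 h against DMSO there were 0 in the first 4 of these classes, and 1 higher and 2 lower in the last. At 24 h there was 1 higher, among the carriers of fatty acids, choline and acetyl-CoA. At 72 h against 24 h there were 1 lower among the vitamin carriers, 1 lower among the 4 others, and 2 higher and 1 lower in the last class. For all genes the shares were 9.10% and 9.47% at 72 h, 6.59% and 6.22% at 24 h, and 5.75% and 7.40% at 72 h against 24 h. DESeq2 called 1 lower in the last class at 72 h against DMSO (647 of all 14965 genes) and limma-voom none. Without the third 24 h library edgeR called 3 of the 6 carriers of fatty acids, choline and acetyl-CoA higher at 24 h (5.71% of all genes). At 72 h against 24 h it called 2 of these 6 lower, and 1 nucleoside carrier lower (6.84% of all genes). In the last class it called 1 higher and 1 lower at 72 h against DMSO (6.26% and 6.62%). There it also called 2 lower at 72 h against 24 h. The riboflavin carrier SLC52A2 (135 to 177 CPM over the 9 libraries) and the choline carrier SLC44A2 (174 to 218 CPM) had 95% intervals of 0.96- to 1.24-fold and 0.96- to 1.25-fold at 72 h. Reads counted for SLC52A2 may include those of the genes that share 44.2% of its exon bases. The nucleoside carrier SLC29A1 had 70.1 to 92.0 CPM, with an interval of 0.762- to 1.00-fold.

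The smallest adjusted p of each of these classes at 72 h belonged to SLC46A3, a lysosomal carrier (log2 fold change 0.38), SLC33A1, which carries acetyl-CoA into the endoplasmic reticulum (−0.22), SLC29A1 (−0.19), SLC66A3 (0.26) and SLC16A1-AS1 (−0.50, edgeR adjusted p = 0.07). SLC33A1 shares 21.1% of its exon bases with another gene on the same strand. SLC16A1-AS1 is an RNA antisense to the lactate carrier SLC16A1, with 11.3 to 14.9 CPM in DMSO and 8.54 to 9.50 at 72 h. It was called lower at 72 h without the third 24 h library (log2 fold change −0.49, edgeR adjusted p = 0.0248). The libraries carry no strand, and 1.73% of its exon bases overlap SLC16A1. The lysosomal amino acid carrier SLC66A1 had 32.9 to 42.9 CPM over the 9 libraries.

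Without the third 24 h library many more members were called. There were 21 higher (11.1%; 5.71% of all genes) and 3 lower (1.59%; 5.11%) at 24 h against DMSO, 15 higher (7.94%; 6.26%) and 18 lower (9.52%; 6.62%) at 72 h against DMSO, and 6 higher (3.17%; 5.19%) and 28 lower (14.8%; 6.84%) at 72 h against 24 h. All calls made with 9 libraries were among them. At 72 h against DMSO no library compared is changed by leaving this one out, and the further calls there came at nearly the same fold changes, with the pooled spread estimated from the other 8 libraries.

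The members named next were chosen after their values were seen, among the 10 with the highest log2 fold change of those newly called at 24 h without the third library. SLC27A3, of the fatty acid carrier and acyl-CoA synthetase family, had 9.08 and 9.17 CPM in the first 2 libraries of 24 h, 3.76 in the third and 3.68 to 5.53 in DMSO. SLC26A6, an anion exchanger of chloride, oxalate and bicarbonate, had 45.1 and 44.8 CPM, then 21.1 in the third, and 20.2 to 31.8 in DMSO. The glycine carrier SLC6A9 had 81.6 and 81.0 CPM, then 39.2, and 46.3 to 61.2 in DMSO. In all 3 the third 24 h library lay within or below the DMSO range and the other 2 lay above it.

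Without that library their log2 fold changes at 24 h were 1.01 (SLC27A3, edgeR adjusted p = 0.00126), 0.86 (SLC26A6, 0.00111) and 0.58 (SLC6A9, 0.000644). With it they were 0.68, 0.57 and 0.30, with adjusted p of 0.327, 0.462 and 0.694. The mitochondrial iron importer SLC25A37 had 76.9 and 71.7 CPM in the first 2 libraries of 24 h, 49.0 in the third and 46.1 to 62.1 in DMSO. At 72 h SLC27A3 was at 5.57 to 5.89 CPM, SLC26A6 at 25.6 to 27.8 and SLC6A9 at 56.3 to 58.9. MALAT1 and NEAT1 also separated the third 24 h library from the other 2, which were the highest of the 9, and their part in these values was not tested.

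**Figure D4:**
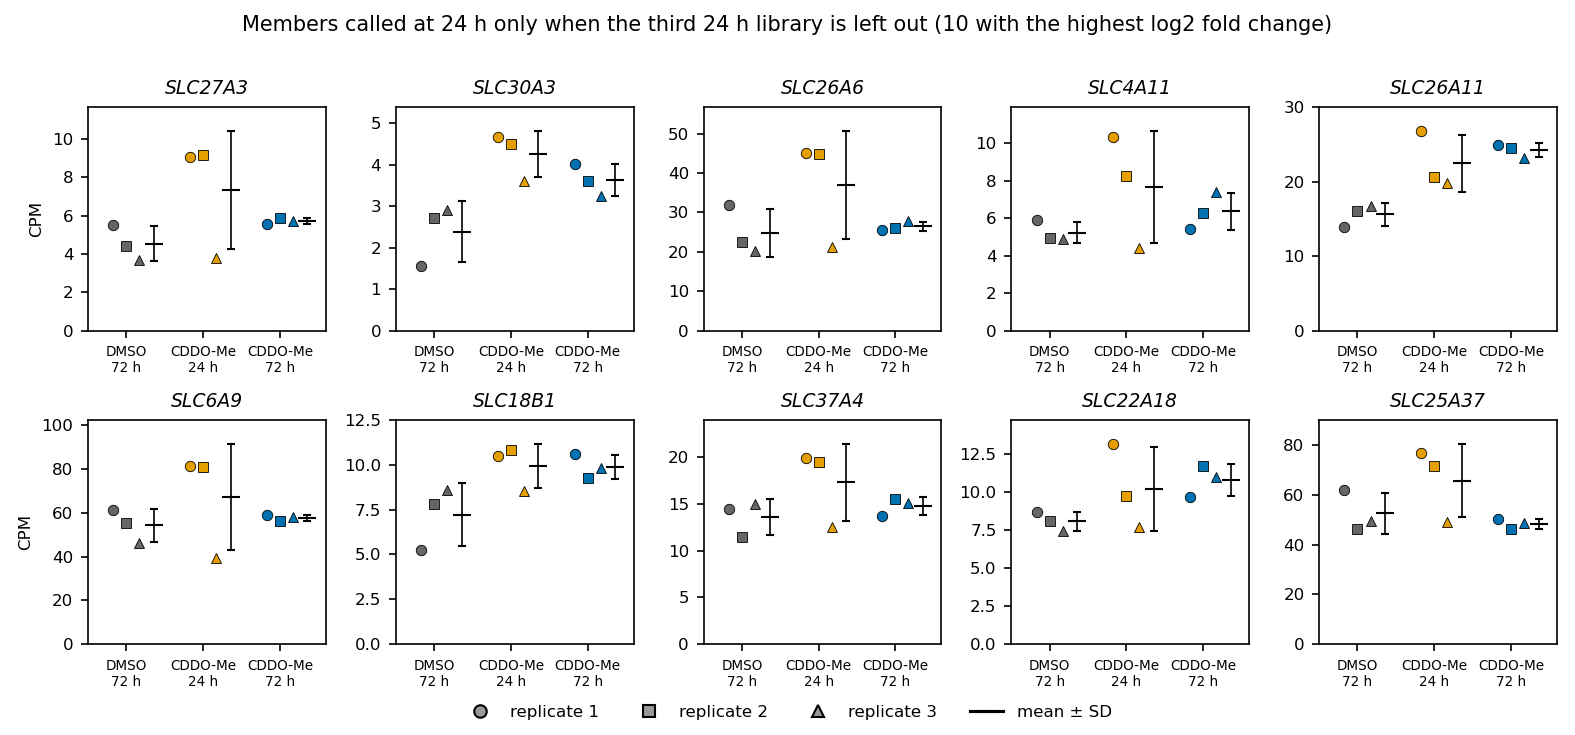
CPM in each of the 9 libraries (marker shape is the replicate number, bars are mean ± SD of 3) of the 10 members with the highest log2 fold change among those called at 24 h only without the third 24 h library. The choice favours members low in the third 24 h library (triangle), and it is the lowest of its group in all 10 panels, at 39.2 CPM against 81.6 and 81.0 for SLC6A9. SLC25A32 and SLC25A24, newly called lower at 24 h and not shown, had 1.32 and 1.41 times the mean of the other 2 in that library.

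**Figure D5:**
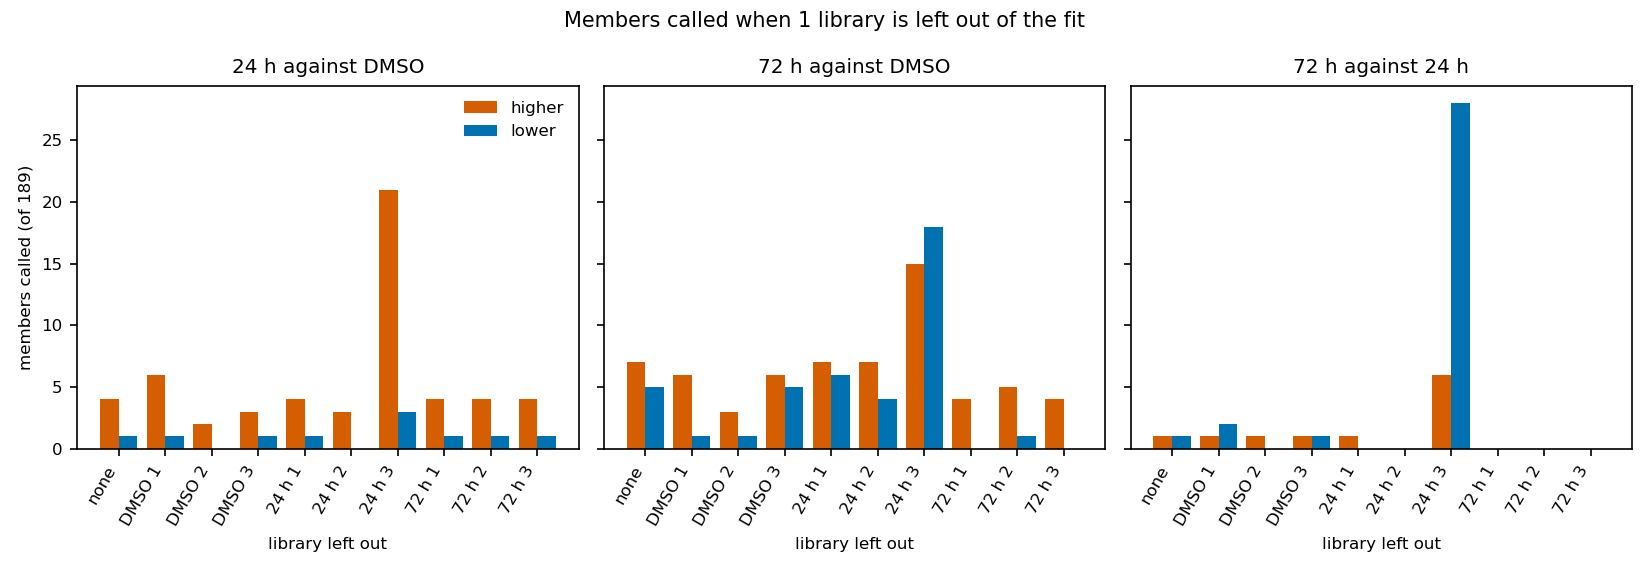
Number of the 189 members called higher or lower in each comparison (edgeR adjusted p under 0.05) with all 9 libraries and with each library left out in turn. Leaving out the third 24 h library gives 21 higher at 24 h against DMSO and 28 lower at 72 h against 24 h, while the other 8 omissions give 2 to 6 and 0 to 2.

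SLC25A25-AS1 and SLC9A3-AS1 overlap carriers on the other strand, and 95 of the 189 members share exon bases with some other gene, 13 of them over 20%. Among the 15 called members, SLC43A3 is the only such case. The reads of overlapping genes cannot be told apart in these libraries. In bulk RNA, fewer cells with a transcript and less transcript per cell cannot be told apart either.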

How the data were processed

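PolyA RNA of 9 AC16 libraries was sequenced without strand information, per the labels' protocols. The authors deposited whole-number read counts per Ensembl gene, and all 9 count columns matched a sample by name. Tools listed in the submitters' processing notes are STAR, SAMtools, Subread and featureCounts, with the builds hg38 and GRCh38. Versions, annotation release and the handling of multi-mapped reads: not given in the sources used here. Some titles say CDDO, and every treated sample is labelled CDDO-Me in its treatment field. No label states that replicates were separate cultures, so the p-values may reflect technical spread only.

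Counts were tested with edgeR 4.0.16 (R 4.3.3, TMM, filterByExpr, robust quasi-likelihood, 1 fit of 9 libraries, 6 residual degrees of freedom), with Benjamini-Hochberg adjustment over 14965 genes. The common biological coefficient of variation was 11.5%, and 3 counts, the limit that a count of 0 allows, equal 0.107 to 0.178 CPM (counting error only). DESeq2 1.42.0 and limma 3.58.1 were alternatives, and the test was tried on simulated data. Members, classes and alternatives were chosen with earlier results of these data known. Pseudogenes were set by GENCODE 29 type. SLC35E2A, coding there but a pseudogene in RefSeq, is a near copy of SLC35E2B, so both are uncertain. Genes named by rule were up to 10 members per direction with the largest called change at 72 h against DMSO, up to 5 per direction in the other 2 comparisons, and, in each class of 3 or more, the smallest adjusted p at 72 h and the highest level. Other members described, such as SLC8A1, SLC31A1, SLC22A5, SLC25A1, SLC25A4 and SLC25A6, were named outside this rule. Of the members called, 1 counted in its class is not reported singly here. Gene coordinates are those of the deposited table.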

Additional observations from a re-analysis of the deposited data

Results flagged for a closer look

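For 2 members the 24 h and 72 h CDDO-Me libraries differed by the test of the difference itself. Without a 24 h vehicle group, a change in the effect of the drug and time in culture cannot be told apart here. SLC20A1, a sodium-phosphate cotransporter, had a log2 fold change of −0.50 at 72 h against 24 h (edgeR adjusted p = 0.0403). SLC25A20, the mitochondrial acyl-carnitine carrier, had one of 0.71 (edgeR adjusted p = 0.015). In both, neither time was called against DMSO on its own with all 9 libraries. All 3 libraries of 72 h lay on the same side of all 3 of 24 h. Without the third 24 h library both were called at 72 h against DMSO. SLC20A1 was then lower (log2 fold change −0.36, edgeR adjusted p = 0.0362) and SLC25A20 higher (0.37, edgeR adjusted p = 0.0391).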

How the results depend on the processing

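The 19 calls on single members gave 361 values under alternatives, of which 292 kept the call, 69 lost it and 0 changed sign. Calls that held in all 19 alternatives were those of SLC12A8 and SLC22A23 at both times and SLC26A11 at 72 h. Of 120 counts of called members, 72 stayed within 1.5 times the reported one.

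Leaving out 1 library gave 2 to 21 members higher and 0 to 3 lower at 24 h against DMSO (4 and 1 with all 9), 3 to 15 and 0 to 18 at 72 h against DMSO (7 and 5), and 0 to 6 and 0 to 28 at 72 h against 24 h (1 and 1). Over all genes (15257 to 15358 tested) these omissions gave 57 to 874 higher and 77 to 783 lower at 24 h. They gave 188 to 958 and 212 to 1014 at 72 h, and 20 to 795 and 11 to 1048 at 72 h against 24 h. The highest counts were without the third 24 h library. The lowest were without DMSO replicate 2 for members higher (2 at 24 h and 3 at 72 h) and without 72 h replicate 1 or 3 for members lower at 72 h (0). Where 2 libraries remained in a group, the spread was pooled over groups. Without both DMSO replicate 1 and the third 24 h library the counts were 37 and 5, 26 and 20, and 12 and 43. Of all 15199 genes tested then, 1825 and 1639, 1326 and 1398, and 1596 and 1875 were called.

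With only the 2 groups compared in the fit, 0 members were lower at 24 h, 14 were higher and 15 lower at 72 h, and 2 were lower at 72 h against 24 h. Over all genes (14534 to 14667 tested) the same counts were 57, 835 and 941, and 94. With no filter on low counts, 2 were lower at 24 h, 12 at 72 h and 8 at 72 h against 24 h (356, 656 and 304 of 29683 genes). DESeq2 gave 13 lower at 72 h and 4 at 72 h against 24 h (647 and 225 of 14965 genes). For limma-voom these were 2 and 0 (397 and 53 of all genes). The fit with robust = FALSE gave 0 lower at 72 h against 24 h (84 of all genes). The cause of these shifts was not tested.

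Correlations of the deviations from the group mean were −0.028 to 0.082 between same-numbered replicates and −0.109 to 0.04 between the others. All were small, and the numbers were not taken as pairs. A replicate block gave 9 members lower at 72 h and 4 lower at 72 h against 24 h (510 and 128 of 14965 genes). It ended the call of SLC6A6 at 72 h and moved the other 4 counts by at most 1. Depth and spread limit the rest: at 72 h against DMSO the 95% interval lay within 1.5-fold for 137 of 189 members. In those of the others that were not called, a change of that size could have been missed.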
